A study of Bos grunniens with 6 samples.

Results

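miR-193 and miR-365 were examined in cultured dermal papilla and hair matrix cells of the yak (Bos grunniens), a small set of microRNAs made from neighbouring hairpins at a pair of loci. The members were chosen by name, as the entries of the deposited table called miR-193a, miR-193b or miR-365 with any arm suffix. This gave 6 of 2853 entries: bta-miR-193a-5p, bta-miR-193a-3p, bta-miR-193a without an arm, bta-miR-193b, bta-miR-365-3p and bta-miR-365-5p, which carry the prefix bta of cattle (Bos taurus) names, left out below. The set was proposed with the levels in both cell types already known, selected on the dermal papilla against hair matrix contrast and on the locus and arm ratios. Those values are therefore given below as a description of these libraries, with no p-value.

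Dermal papilla cells form the mesenchymal core of the follicle bulb and signal to the epithelium around it. Hair matrix cells are that epithelium, which divides to build the hair. Each cell type had 3 small-RNA libraries. All 6 came from cells labelled wild type, isolated from skin and grown in DMEM/F12 with serum, IGF1, EGF and antibiotics. The labels speak of biological replicates but name no animal or culture, so the spread between libraries may be partly technical, and the p-values given for other miRNAs measure that spread alone.

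A microRNA hairpin is cut into a duplex of a 5p and a 3p arm, and the arm that is loaded into Argonaute represses mRNAs that pair with its seed, bases 2 to 8. In mammals miR-193b lies beside one miR-365 hairpin and miR-193a lies beside another, at separate loci, and hairpins that lie this close are commonly made from one primary transcript. Both miR-365 hairpins give the same 3p arm. The 3p arms of miR-193a and miR-193b are known to repress KIT, cyclin D1 and MCL1, which act in cell survival and division, and miR-193b with miR-365 is known from work on brown fat development. The sources used here do not say which miR-365 hairpin gave the listed 5p arm.

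The sequences show which members share a seed and which reads can be told apart. They are printed as listed in the deposited table, 5′ to 3′ and in DNA letters, with the seed in capitals.
miR-193a-5p: tGGGTCTTtgcgggcgagatga
miR-193a-3p: aACTGGCCtacaaagtcccagt
miR-193b: aACTGGCCcacaaagtcccgcttt
miR-365-3p: tAATGCCCctaaaaatccttat
miR-365-5p: aGGGACTTttgggggcagatgtg
miR-193a, without an arm: gGGACTTTgtaggccagtt

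miR-193a-3p and miR-193b have the same seed and were the only entries of the table with it. Aligned from the 5′ end, they were identical at 19 of 22 bases, with the substitutions T9C, A20G and G21C (the miR-193a-3p base first, then the position, then the miR-193b base), and miR-193b runs 2 bases further. The seeds of miR-193a-5p and miR-365-3p were in no other entry. That of miR-365-5p was in 1 predicted entry without a cattle name, which stayed at or below 0.125 RPM in all 6 libraries. A search for other entries with at most 1 mismatch to a member over at least 18 aligned bases found 0 pairs.

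The entry called miR-193a, 19 bases long, is the exact reverse complement of bases at the 5′ end of miR-193a-3p and is therefore neither arm of the miR-193a hairpin. It held 12, 13 and 12 reads in the dermal papilla libraries and 1, 4 and 0 reads in the hair matrix libraries, and the 0 allows a level of up to 0.125 RPM (3 reads). Over each cell type it had 12.1% and 10.9% as many reads as miR-193a-3p. Of the 757 entries with cattle names, 20 are the exact reverse complement of another such entry or of a stretch of it. This entry did not pass the filter on low values and was not tested. In what follows, miR-193a means the 2 arms.

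Levels are given as RPM, meaning reads scaled to the same total in each library, and are not corrected for length (the 5 arms have 22 to 24 bases) or for ligation bias between sequences. With the smallest nonzero value of each library taken as a single read, the libraries rest on 23904796 to 24693655 reads. The listed entries hold 71.7% to 73.5% of these. Labels and markers matched, but the markers were chosen with earlier results of these data known, so the match is a description. An epithelial list of 10 entries (among them the miR-200 family, miR-205 and miR-184) summed to 397 to 472 RPM in dermal papilla libraries. In hair matrix libraries it summed to 84491 to 87204 RPM. The 9 entries of a mesenchymal list (among them miR-143, miR-199 and miR-214) summed to 98451 to 101369 and 1296 to 1537 RPM. Blood and immune miRNAs summed to 20.3 to 23.0 and 9.11 to 12.5 RPM, endothelial miR-126 to 3.68 to 4.70 and 2.57 to 4.01 RPM, muscle miRNAs to 58.4 to 72.9 and 40.9 to 42.6 RPM, and the melanocyte miR-211 was at 0 in dermal papilla and at most 0.0810 RPM in hair matrix libraries. Their part in the values below was not tested.

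The miR-193 and miR-365 arms were all higher in dermal papilla cells, but by amounts that fell into separate ranges. The miR-193a arms were 7.30-fold (5p) and 6.75-fold (3p) higher. miR-193b, miR-365-3p and miR-365-5p were 2.66-fold, 2.97-fold and 2.27-fold higher. Summed, the 5 arms came to 737 ± 69.6 RPM in dermal papilla against 228 ± 27.2 RPM in hair matrix cells (SD, n = 3 each), or 0.102% against 0.0315% of the reads on listed entries. From bulk libraries, more cells with these miRNAs and more of them per cell cannot be told apart.

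**Figure D1:**
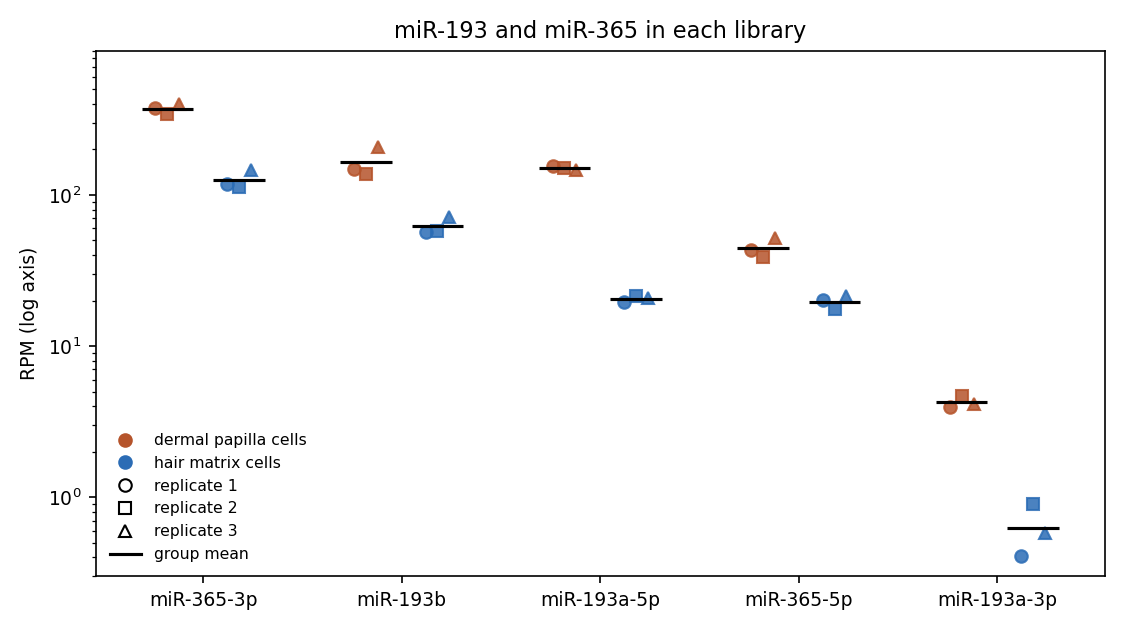
RPM of the 5 arms in each library, on a log axis. Points are libraries and bars are the means of 3 libraries per cell type. Marker shape gives the replicate number, which no label says orders or pairs the libraries. For each arm the 3 dermal papilla libraries lie above the 3 hair matrix libraries, with the widest gaps for miR-193a-5p and miR-193a-3p.

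miR-193a-5p, the abundant arm of the miR-193a hairpin, was at 154, 151 and 146 RPM in dermal papilla replicates 1 to 3 and at 19.4, 21.5 and 20.9 RPM in hair matrix replicates 1 to 3. The libraries of each cell type lay close together and far from those of the other. The means were 151 ± 4.36 and 20.6 ± 1.07 RPM (SD, n = 3). On the log2(RPM + 1) scale used for the fit over all entries, which understates the change of low entries, the log2 change was 2.81 ± 0.063 (SE). It was the member with the largest change, and 10.7% of the 503 tested entries had a change at least as high.

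miR-193a-3p, the arm with the KIT-repressing seed, was rare. It was at 3.93, 4.68 and 4.12 RPM in dermal papilla libraries (94, 112 and 100 reads) and at 0.405, 0.899 and 0.583 RPM in hair matrix libraries (10, 22 and 14 reads). The groups did not overlap, but the hair matrix values rest on few reads and differed among themselves by more than 2-fold. The means were 4.25 ± 0.388 and 0.629 ± 0.250 RPM (SD, n = 3). The log2 change was 1.70 ± 0.128 (SE) on the log2(RPM + 1) scale and 2.83 ± 0.341 (SE) without a pseudocount, beside 2.87 ± 0.050 (SE) for miR-193a-5p. No hair matrix library reached 1 RPM, so this arm was tested only through its dermal papilla libraries, and its direction in the fit follows from that filter.

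miR-193b, the other member with this seed, was at 148.4, 138 and 209 RPM in dermal papilla libraries and at 57.1, 57.5 and 71.7 RPM in hair matrix libraries. Replicate 3 was the highest library of its cell type in both, and the groups did not overlap. The means were 165 ± 38.1 and 62.1 ± 8.28 RPM (SD, n = 3), with a log2 change of 1.38 ± 0.168 (SE). Without dermal papilla replicate 3 the change was 1.2.

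miR-365-3p, the shared product of both miR-365 hairpins, was the most abundant member. It was at 377, 341 and 401 RPM in dermal papilla libraries and at 117, 114 and 145 RPM in hair matrix libraries, again with replicate 3 highest in each. The means were 373 ± 30.3 and 125 ± 17.3 RPM (SD, n = 3), with a log2 change of 1.57 ± 0.108 (SE). Among the 503 tested entries it ranked 75 by mean level in dermal papilla and 102 in hair matrix cells.

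miR-365-5p, the less abundant arm, was at 43.3, 38.7 and 51.9 RPM in dermal papilla libraries and at 20.1, 17.5 and 21.3 RPM in hair matrix libraries. The groups did not overlap. The means were 44.6 ± 6.70 and 19.7 ± 1.95 RPM (SD, n = 3). Its log2 change of 1.14 ± 0.124 (SE) was the smallest among the members and lay close to the 2-fold minimum, and it fell to 0.86 after median centring of the libraries.

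Members were read against a limma fit over all 503 tested entries, in which a call needed a Benjamini-Hochberg adjusted p under 0.05 and at least 2-fold. Each of the 5 tested arms was called higher in dermal papilla cells, where 25.2% of tested entries were called in that direction. These shares depend on the filter: without any 1 dermal papilla library 65 entries were called higher in dermal papilla cells instead of 127, and without any 1 hair matrix library 60 to 64 were called higher in hair matrix cells instead of 100. Each arm also had all dermal papilla libraries above all hair matrix libraries, as had 41.7% of tested entries. The median log2 change was 1.57 over the 5 arms and -0.01 over all tested entries. Because the arms were picked with this contrast known, and miR-193a-3p was tested only through its dermal papilla libraries, nothing is drawn from these counts. For miR-193a-3p both the direction of the call and the separation of the libraries follow from the filter. Calls of miR-365-5p were lost with a pseudocount of 10 (0.88), after median centring (0.86) and without the 5 most abundant entries (0.97), and that of miR-193a-3p with a pseudocount of 10 (0.42).

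**Figure D2:**
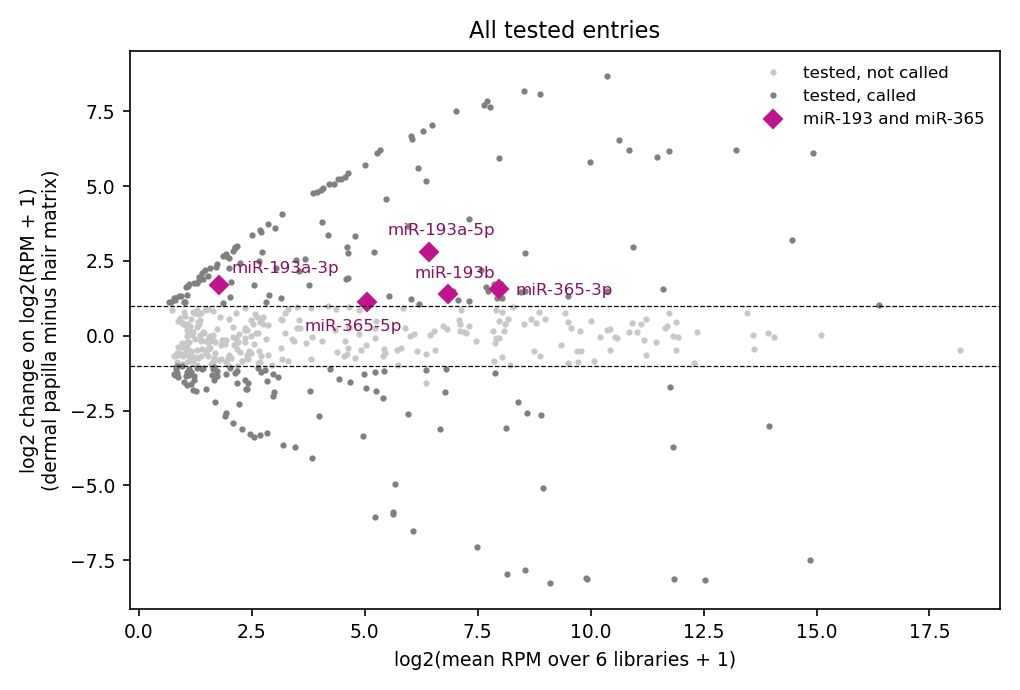
Log2 change (dermal papilla minus hair matrix, on log2(RPM + 1)) against mean level for the 503 tested entries; dashed lines mark 2-fold. Diamonds are the 5 arms: miR-193a-5p stands at 2.81, and the others lie between 1.14 and 1.70 in the part of the plot that many called entries share. The place of miR-193a-3p, at 1.70, depends on the added 1: without a pseudocount its change was 2.83, beside 2.87 for miR-193a-5p.

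The order of the levels differed between the cell types. In dermal papilla cells miR-365-3p stood above all others in each library. miR-193b and miR-193a-5p came next and were not separated by their spread, since miR-193a-5p was the higher in replicates 1 and 2 and miR-193b in replicate 3. miR-365-5p and then miR-193a-3p followed, each clear of its neighbours. In hair matrix cells miR-365-3p was again first and miR-193b second, clear of the rest, but miR-193a-5p and miR-365-5p overlapped, at 19.4 to 21.5 and 17.5 to 21.3 RPM. As a share of the 5 arms, miR-193a-5p held 20.6% ± 2.32 in dermal papilla against 9.10% ± 1.08 in hair matrix cells (SD, n = 3 each).

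Ratios within a library compare the loci and arms without depending on the scaling between libraries. As a measure of the miR-193a locus against the miR-193b locus, the ratio of miR-193a-5p to miR-193b was 1.04, 1.09 and 0.699 in dermal papilla libraries and 0.340, 0.374 and 0.292 in hair matrix libraries. The means were 0.945 ± 0.215 and 0.335 ± 0.0414 (SD, n = 3). A 5p arm is set against a 3p arm here, so a ratio near 1 does not show equal output of the loci, and only the difference between the cell types is read. The groups did not overlap, and the mean log2 ratio (RPM + 1) was higher in dermal papilla cells by 1.43, with a pooled SD of 0.279 (n = 3 per cell type). This ratio was added after the values were seen, because miR-193a-3p is too rare to stand for its locus.

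Between the arms that share a seed, miR-193b took nearly all reads. It made up 97.4%, 96.7% and 98.1% of the sum of miR-193b and miR-193a-3p in dermal papilla libraries and 99.3%, 98.5% and 99.2% in hair matrix libraries. Every dermal papilla value was below every hair matrix value. The nearest, 98.1% and 98.5%, lay close together, and the hair matrix shares rest on 10, 22 and 14 reads of miR-193a-3p. The reads with this seed summed to 169 ± 37.9 RPM in dermal papilla against 62.8 ± 8.25 RPM in hair matrix cells (SD, n = 3), a 2.70-fold difference. The log2 ratio of miR-193b to miR-193a-3p differed (dermal papilla minus hair matrix) by -0.32 on the RPM + 1 scale, where the groups overlapped, and by -1.43 without a pseudocount, where they did not. With a pseudocount of 10 its sign turned, to 0.84, so its size depends on how the rare miR-193a-3p is treated.

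The ratio of the miR-193a arms did not separate the cell types. In hair matrix cells it rests on 10, 22 and 14 reads of miR-193a-3p, so a moderate difference could go unseen. miR-193a-5p had 39.3, 32.3 and 35.4 times the reads of miR-193a-3p in dermal papilla libraries and 48.0, 23.95 and 35.9 times in hair matrix libraries. The hair matrix values spread on both sides of the dermal papilla ones, and the means were 35.7 ± 3.48 and 35.9 ± 12.02 (SD, n = 3). On the RPM + 1 scale the mean log2 ratios differ by 1.11, which follows from adding 1 to values under 1 RPM: without a pseudocount the difference was 0.04, with a pooled SD of 0.370.

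The arms of miR-365 were less unequal. miR-365-3p had 8.71, 8.81 and 7.73 times the reads of miR-365-5p in dermal papilla libraries and 5.84, 6.48 and 6.81 times in hair matrix libraries. The lowest dermal papilla ratio was above the highest hair matrix ratio, and the mean log2 ratio was higher in dermal papilla cells by 0.43 (RPM + 1; pooled SD 0.107, n = 3 per cell type). The 3p arm comes from both hairpins, so this ratio is not that of one hairpin. Set beside the summed miR-193 3p arms, miR-365-3p was 2.47, 2.38 and 1.88 times as high in dermal papilla libraries and 2.04, 1.94 and 2.01 times as high in hair matrix libraries. These overlapped, and the difference of 0.17 was near the pooled SD of 0.151.

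**Figure D3:**
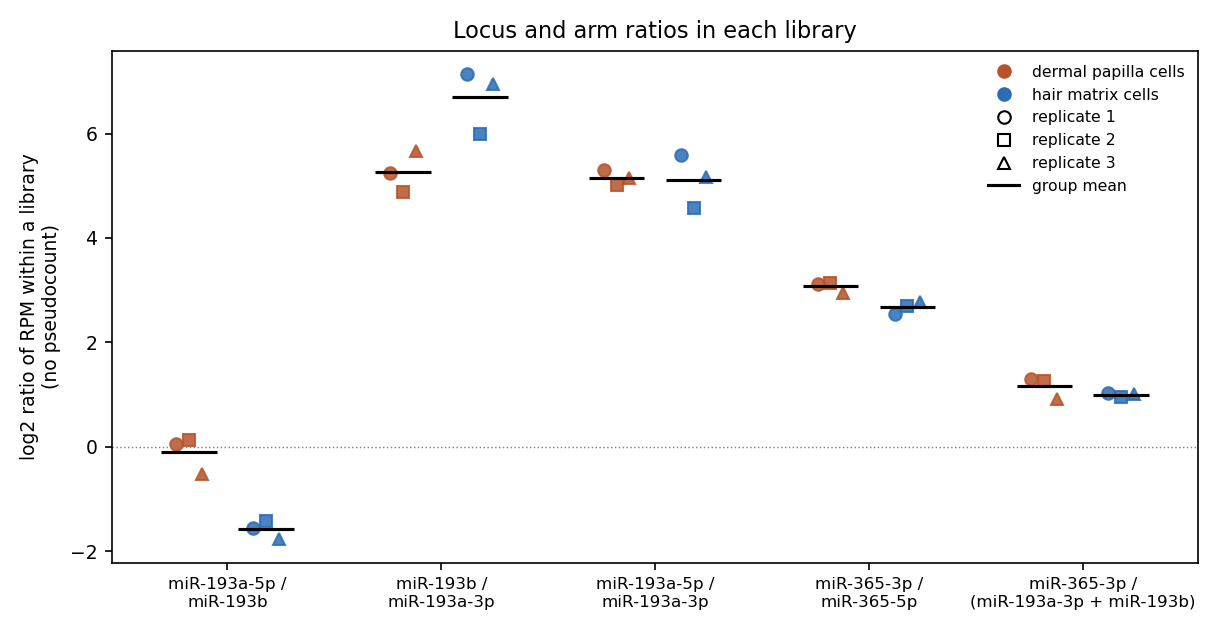
Log2 ratios within each library, without a pseudocount; points are libraries and bars the means of 3. The ratio of miR-193a-5p to miR-193b is separated between the cell types by 1.47, whereas the ratio of the miR-193a arms differs by 0.04 and the hair matrix points spread around the dermal papilla ones.

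Patterns over the 6 libraries were also compared between members. Likeness was measured as the root mean square difference between log2 values, each centred on its own mean over the 6 libraries. Without a pseudocount it was 0.303 between the miR-193a arms, and 0.158, 0.150 and 0.220 for miR-193b with miR-365-3p, miR-193b with miR-365-5p and the miR-365 arms. Between a miR-193a arm and any of the other 3 it was 0.661 to 0.933. On the log2(RPM + 1) scale miR-193a-3p was placed otherwise, at 0.568 from miR-193a-5p but 0.232, 0.317 and 0.378 from miR-365-3p, miR-193b and miR-365-5p, so its place depends on the pseudocount. miR-193a-5p was far from the other 3 arms on this scale too, at 0.636 to 0.855. These distances come from the same reads as the ratios. Without a pseudocount, those between a miR-193a arm and the other 3 largely restate the differences in log2 change, the contrast on which the members were picked.

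Among replicates of a cell type, miR-193b and the miR-365 arms also shared their high library. In dermal papilla replicate 3 the level was 1.46 times the mean of replicates 1 and 2 for miR-193b, 1.27 times for miR-365-5p and 1.12 times for miR-365-3p, but 0.954 times for miR-193a-5p. In hair matrix replicate 3 it was 1.25, 1.13 and 1.26 times for the same arms and 1.02 times for miR-193a-5p. Over the 233 entries with a mean of at least 10 RPM the median was 1.02 in the dermal papilla and 1.03 in the hair matrix library. A rise as large as that of miR-193b was seen in 3.43% of them in dermal papilla and 11.6% in hair matrix replicate 3, one as large as that of miR-365-5p in 5.58% and 23.2%, and one as large as that of miR-365-3p in 19.3% and 10.7%. Replicate 3 was set apart with these values known, as the library in which these arms were highest. The shares therefore describe that library and test nothing. With 3 libraries per cell type no correlation was computed. The replicates with the number 3 are not paired by any label.

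**Figure D4:**
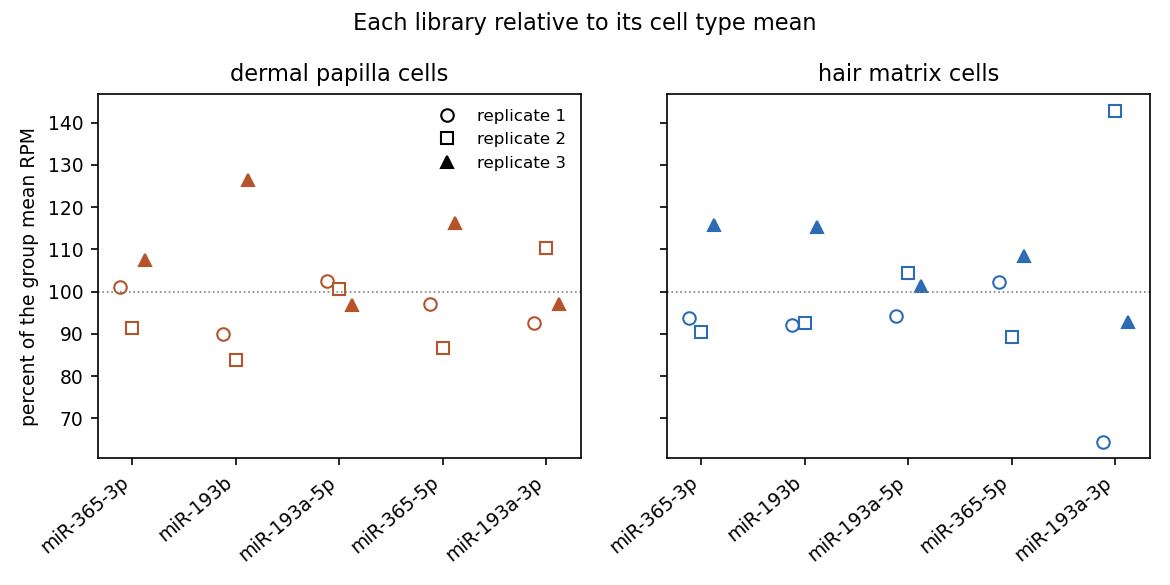
RPM of each arm in each library as a percentage of the mean of its cell type; filled triangles are replicate 3. For miR-365-3p, miR-193b and miR-365-5p the triangle is the highest point in both panels, whereas for miR-193a-5p it is not, and miR-193a-3p spreads widely in hair matrix cells, where it rests on 10 to 22 reads.

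The entries most like each member in their centred log2(RPM + 1) values over the 6 libraries were found among the other tested entries with cattle names. For miR-193a-5p they were miR-10a, miR-129-5p, miR-656 and miR-376e, at differences of 0.0538 to 0.0984. miR-10a, from a HOX cluster, was at 657 ± 7.29 RPM in dermal papilla and 95.4 ± 0.446 RPM in hair matrix cells (SD, n = 3), and miR-129-5p at 42.5 ± 0.913 and 5.33 ± 0.193 RPM. For miR-193b they were miR-664b, miR-2284h-5p, miR-149-3p and miR-215 (0.0697 to 0.150), of which miR-664b was at 9.71 ± 1.77 and 3.16 ± 0.652 RPM. For miR-365-3p they were miR-3431, miR-100, miR-669 and miR-2284h-5p (0.0889 to 0.116). The most abundant of these, miR-100, was at 4636 ± 146 and 1581 ± 59.8 RPM. For miR-365-5p they were miR-2387, miR-215, miR-296-3p and miR-149-3p (0.0837 to 0.112), so miR-215 and miR-149-3p were near both miR-193b and miR-365-5p. The rare miR-193a-3p had miR-3578, miR-2284w, miR-328 and miR-615 as nearest entries (0.138 to 0.148). Several of the nearest entries average under 1 RPM in hair matrix cells, where adding 1 sets much of the likeness.

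Other miRNAs reported to act on KIT, cyclin D1 or MCL1 were called in both directions, at shares near those of all tested entries. Of its 24 tested entries, 7 were called higher in dermal papilla and 5 in hair matrix cells, where 25.2% and 19.9% of all tested entries were called, and 12 were not called. The median log2 change was 0.09, against -0.01 over all tested entries. The list of 21 names was matched without the arm, so it holds 3 second arms with other seeds, and of these miR-503-3p and miR-424-3p (chosen for mention with their values known) are among the 7. miR-221, which represses KIT, went opposite to the miR-193 arms, at 1608 ± 56.9 RPM in dermal papilla and 5292 ± 198 RPM in hair matrix cells (SD, n = 3; log2 change -1.72 ± 0.044 SE, limma adjusted p = 2.34e-08). miR-125b, which has been linked to MCL1, was higher in dermal papilla cells, at 3457 ± 168 and 445 ± 11.7 RPM (log2 change 2.96 ± 0.049 SE, limma adjusted p = 1.98e-09). let-7b and miR-29a, the other abundant entries, stood at log2 changes of 0.12 and -0.20, under the 2-fold minimum. miR-221 alone had 9.50 times the summed reads of the miR-193 3p arms in dermal papilla and 84.3 times in hair matrix cells, as ratios of means. Measured targets were not analysed here, so no statement on repression follows.

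miRNAs reported in brown and beige fat, the setting in which miR-193b and miR-365 are best known together, were likewise called near the shares of all tested entries. Of 26 tested entries, 5 were called higher in dermal papilla and 7 in hair matrix cells, beside 25.2% and 19.9% of all tested entries, and 14 were not called. The median log2 change was -0.09, and second arms are counted here too. miR-27a-3p was higher in hair matrix cells, at 3448 ± 118 and 28034 ± 1266 RPM (log2 change -3.02 ± 0.045 SE, limma adjusted p = 1.6e-09). miR-26a and miR-378, with log2 changes of 0.77 and -0.91, stayed under 2-fold and so were not called (limma adjusted p = 7.07e-07 and 9.3e-06). miR-27b had a log2 change of 0.03 (limma adjusted p = 0.535). The list holds miRNAs reported both to promote and to inhibit brown fat formation.

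**Figure D5:**
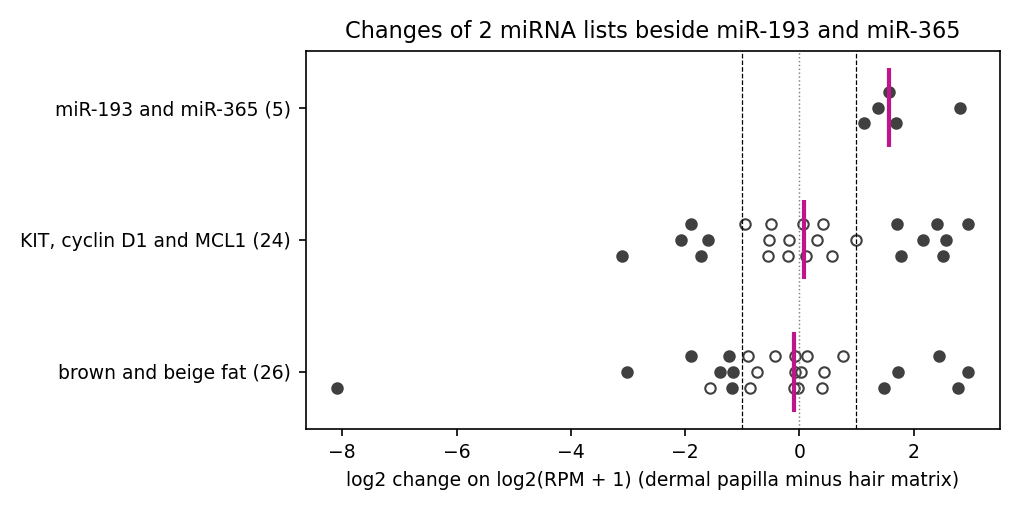
Log2 change (dermal papilla minus hair matrix, on log2(RPM + 1)) of the 5 arms and of the tested entries of both lists, with the number of entries in brackets. Filled points were called, open points were not, pink bars are medians and dashed lines mark 2-fold; the lists spread on both sides of 0, with medians of 0.09 and -0.09, and the 5 arms lie to the right of the 2-fold line.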

How the data were processed

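The authors label their values TPM, but the deposited numbers are RPM: within a tolerance of 0.001 read, 100% of the deposited values in each library are whole multiples of 1 step, from which whole reads were recovered. Per the labels' protocols, libraries were made with a TruSeq small RNA kit from 1 µg of total RNA. HISAT2 2.2.1.0, Trimmomatic and DESeq 1.20.0 appear in the submitters' processing notes with no role; the sources used here do not give the build, miRNA reference or counting rule. Arms whose reads match several loci could therefore have been counted in different ways.

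The 503 entries that reached 1 RPM in 3 or more of the 6 libraries were fitted as log2(RPM + 1) with limma 3.58.1 (R 4.3.3), cell type as the only term and a mean-variance trend, with Benjamini-Hochberg adjustment over all entries tested. The step was also run on simulated counts with the same dispersion for every entry and independent replicates, a simpler setting than these libraries. Nothing here rests on that run. Ratios and shares were computed within libraries and given as mean ± SD. Alternatives were other pseudocounts, filters and scalings, variances without a trend, a replicate block, edgeR 4.0.16 and DESeq2 1.42.0 on the recovered reads, and leaving out each library. Ratios without a pseudocount, and the ratio of miR-193a-5p to miR-193b with its alternatives, were added after the values were seen. The comparison of replicate 3 with the other replicates was not among the planned results. An entry listed under the names miR-129 and miR-129-5p was read as miR-129-5p.

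The members, both lists and the markers were chosen with earlier results of these data known. Named entries are the members, the 4 tested entries most like each, and the 4 most abundant tested entries of each list (names matched without the arm). Sequences are those of the deposited table. The floor of 3 reads covers counting error only, and every ± is an SD or SE between libraries. All 6 libraries were counted separately, as labelled. Replicate libraries of a cell type differed by far more than counting noise (chi-square per degree of freedom 26.6 to 76.8). This cannot tell separate cultures from separate preparations of the same culture.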

Additional observations from a re-analysis of the deposited data

How the results depend on the processing

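Every member stayed higher in dermal papilla cells in each alternative in which it was tested. The members were picked on this contrast, so this is a description. For miR-193a-3p the direction under the filter of 1 RPM follows from that filter, and without a filter its log2 change was 1.70. Under the filter, edgeR and DESeq2 on the recovered reads gave 2.72 and 2.82 for miR-193a-3p. Without any 1 dermal papilla library, and with a filter of 10 RPM, miR-193a-3p was no longer tested. The members called numbered 3 with a pseudocount of 10 and 4 to 5 when a library was left out, and 5 in both edgeR and DESeq2. Over all entries, 227 calls became 117 with a pseudocount of 10, 127 with a filter of 10 RPM and 382 without the 5 most abundant entries (764 entries tested), and 166 to 191 when a library was left out. The split of 127 higher in dermal papilla and 100 higher in hair matrix cells became 109 and 137 after median centring, which moved the median log2 change to -0.29, and 155 and 227 without the 5 most abundant entries. It became 65 and 101 to 104 without a dermal papilla library, and 125 to 128 and 60 to 64 without a hair matrix library, where fewer entries passed the filter. The difference in the ratio of miR-193b to miR-193a-3p was -0.70, 0.84 and -1.43 with a pseudocount of 0.5, a pseudocount of 10 and none, and -0.51 to -0.14 when a library was left out. That of miR-193a-5p to miR-193a-3p was 0.75, 1.97 and 0.0414 with the same settings. With a pseudocount of 10 that of miR-365-3p to miR-365-5p was 0.63 and that of miR-193a-5p to miR-193b was 1.13. The changes between pseudocounts follow from adding different amounts to low values. The range over left-out libraries was computed with a pseudocount of 1. With the replicate block 228 entries and 5 members were called. Same-numbered libraries correlated in their deviations at 0.14, 0.08 and -0.27 across entries, and only those numbered 1 matched their own number best. With 3 libraries per cell type this cannot decide whether same-numbered libraries share an animal or a batch. With the block the SE fell for miR-193b (0.168 to 0.075), miR-365-3p (0.108 to 0.062), miR-365-5p (0.124 to 0.075) and miR-193a-3p (0.128 to 0.095). For miR-193a-5p it rose (0.063 to 0.071). Depth limits miR-193a-3p in hair matrix cells and the reverse-complement entry.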
